A study of Brassica oleracea var. italica with 18 samples.

Results

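The shoot meristems of a heat-tolerant (HT) and a heat-sensitive (HS) broccoli genotype were compared at 15 °C, the temperature at which both genotypes form heads. All 6 arrays labelled 15 °C were taken, 3 of HT and 3 of HS, out of 18 in the series, which also holds 3 arrays of each genotype at 22 °C and at 27 °C. Each array is a 1-colour Agilent array designed for Brassica napus and hybridised with Cy3-labelled total RNA of Brassica oleracea var. italica. HT is the inbred line B295, which also forms heads at 22 and 27 °C, and HS is BR1 op, which does not. Plants of both genotypes had 18 h of light and 6 h of dark, spent 10 days in vermiculite and 30 days in 9 cm pots of soil at 22 °C, and were then moved to their temperature for 2 weeks, per the labels (the methods give 10 days). Each genotype is 1 line, so that heat tolerance cannot be told apart from any other difference between the 2 lines. The design text calls the 3 arrays of a group biological replicates, while the methods leave unsettled whether an array holds 1 plant or a pool, so the tests measure the spread between these arrays.

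A broccoli head is an arrested inflorescence, made when the shoot meristem turns from leaves to inflorescence meristems that stop before floral buds open. In the Brassicaceae this transition is held back by the MADS-box repressor FLOWERING LOCUS C (FLC), which cold lowers, and is promoted by photoperiod and clock genes such as GIGANTEA (GI) and by the meristem identity factor LEAFY (LFY). Heat shock proteins, which fold other proteins, and the salicylate and jasmonate pathways of defence are further programmes that change with temperature in plants.

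Expression is given as the log2 intensity of a probe after quantile normalization, and differences are HT minus HS on that scale, so that 1 is a 2-fold difference. Of the 43603 probes, 65.7% to 69.8% were marked well above background on each of the 6 arrays. Arrays of one genotype correlated at r = 0.991 to 0.993 in HT and 0.988 to 0.989 in HS over all probes, and arrays of different genotypes at 0.955 to 0.960. Replicates 1 and 2 of both genotypes lay on one slide and replicate 3 of both on another. On each slide the 2 genotypes took different positions (positions 4, 2 and 4 in HT, and 3, 1 and 3 in HS), so position and genotype cannot be told apart. Genes were named through the study's own annotation, which covers 2157 probes (4.95%) of 1728 Arabidopsis loci. It comes from a table of co-expression modules (1187 probes) and a table of probes higher in HT (970 further probes), both drawn from these arrays and held here only in part. The second table was chosen for higher values in HT than in HS at any of the 3 temperatures, on arrays that include these, so its direction is not independent evidence. Before building modules the methods filtered probes on the fold change of HT to HS and its adjusted p. The share of module-table probes called between the lines is therefore not independent either.

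Marker genes of the shoot meristem and other tissues were read where the annotation holds them. All 9 probes of the 8 shoot meristem genes, which include LFY, CUC1 (organ boundaries) and BAM3 (a CLAVATA1-related receptor kinase), were well above background on all 6 arrays. Their mean log2 intensity was 8.67 to 9.01 on the HT arrays and 8.68 to 8.99 on the HS arrays. Only 1 of the 1187 module-table probes and 0 of the 970 others were well above background on none of the 6 arrays. Over all 43603 probes the number was 10870. Detection of an annotated marker was thus nearly fixed beforehand and does not test the label of shoot meristem. The 12 probes of 8 leaf genes, which include photosynthesis genes and the peroxisomal catalase CAT2, averaged 12.06 to 12.48 in HT and 12.04 to 12.68 in HS. These levels overlapped. Their detection was likewise nearly fixed beforehand, so the presence of leaf or green primordium RNA was not tested. PDF2, an epidermal homeodomain gene, was 0.39 lower in HT (adjusted p = 0.0269), and both probes of the photosystem I subunit PSAE1 were 0.59 and 0.69 higher. PSAE1 comes from the table chosen for higher values in HT, as do CHLI1 (0.56) and SBPase (0.29), which were not called. The leaf probes of the module table all went the other way, at -0.01 to -1.27, and none was called. The guard cell channel KAT1 was 0.72 higher in HT (adjusted p = 0.031) and well above background on 3 HT and 2 HS arrays. In bulk tissue, fewer cells of a type and less RNA per cell cannot be told apart.

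The genotypes differed at 3805 probes (8.73% of those tested) at an adjusted p under 0.05 and a difference of 2-fold or more, 1826 higher in HT (4.19%) and 1979 higher in HS (4.54%). These probes belong to 3667 targets, the transcripts the array was designed on. Without a minimum fold, 9224 probes passed (21.2%), 4992 higher in HT (11.4%) and 4232 higher in HS (9.71%). The arrays of the 2 genotypes did not overlap for 3728 of the 3805 probes, against 35.1% of all probes, and 3790 had the same sign within each slide. Among the 27260 probes well above background on all 6 arrays, 1099 were called higher in HT and 1062 higher in HS (7.93%), with a median fold of 2.91 and a 90th percentile of 8.99. Large differences were found in both directions: 49 of these probes were 16-fold or more higher in HT and 73 in HS.

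**Figure D1:**
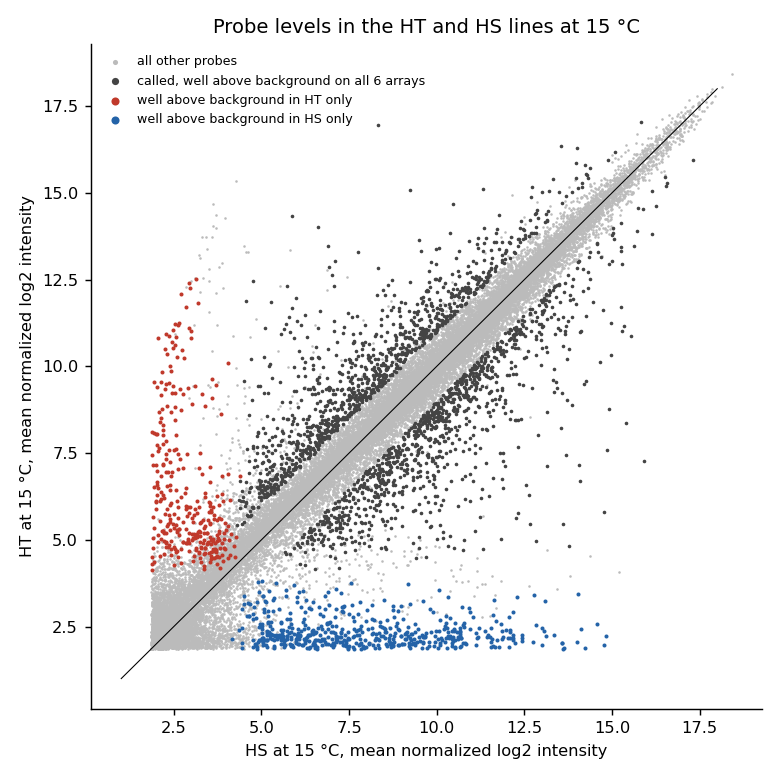
Mean normalized log2 intensity of each probe at 15 °C in HT (vertical axis) against HS (horizontal axis), 3 arrays each, with the line of equality. The called probes measured on all 6 arrays (dark) lie on both sides of the line, and 315 probes well above background only in HT (red) and 528 only in HS (blue) lie along the axes.

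Among probes well above background on all 6 arrays, the annotated genes with the largest differences towards HT encode proteins of varied function, and their probes were at low intensity in HS. A probe for AT4G00040, of the chalcone and stilbene synthase family, read 14.15, 14.47 and 14.38 on the HT arrays and 4.95, 7.53 and 5.17 on the HS arrays. The difference was 8.45 (adjusted p = 5.6e-06), or 349-fold. The probe of TUB1, a beta tubulin, read 13.85, 14.14 and 14.04 in HT and 6.06, 7.55 and 6.26 in HS, a difference of 7.39 (adjusted p = 2.02e-10). In both the lowest HT array stood far above the highest HS array, and the HS replicate 2 array was the highest of its group. Without that array AT4G00040 differed by 9.27. ATX1, a copper chaperone, differed by 7.33, AT4G38710, a glycine-rich protein, by 6.61, AT4G31985, a ribosomal protein of the L39 family, by 6.57, and EPC1, a glycosyltransferase of cell adhesion, also by 6.57. COG8, of a Golgi tethering complex, AT3G08610, of unknown function, PSB27, which assembles photosystem II, and PRXIIE, a plastid peroxiredoxin, differed by 5.95 to 6.01. For each of these 10 loci the arrays of the 2 genotypes did not overlap, as at 3728 of the 3805 called probes and 35.1% of all probes. Loci chosen for a large fold would seldom overlap, so this adds no support.

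Other probes of the same loci differed far less. The second probe of AT4G00040 was 1.13 higher in HT (adjusted p = 0.00402), that of AT4G31985 0.78 (adjusted p = 0.466), that of ATX1 0.11 (adjusted p = 0.517), and that of AT3G08610 was 0.31 lower in HT (adjusted p = 0.187). Their intensity in HS was high, with a mean of 14.15 for AT4G00040 and 10.77 for ATX1. These probes were designed on separate Brassica transcripts that share the closest Arabidopsis gene. A probe on this array may read 1 copy of a gene, and whether the transcript under it differs in sequence or in amount between the lines was not tested. Over all 1534 targets with 2 probes measured on all 6 arrays, 149 had 1 or more called. The other probe had the same sign in 125 of these, and both probes were called in 61, 2 of them with opposite signs.

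**Figure D2:**
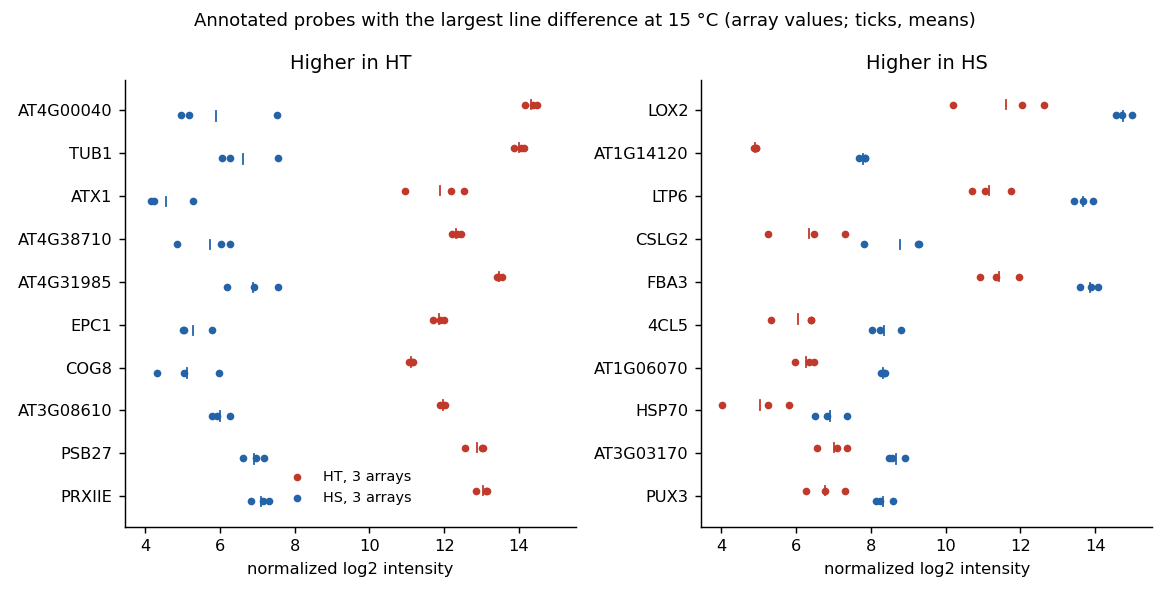
Normalized log2 intensity on each of the 3 HT (red) and 3 HS (blue) arrays at 15 °C for the 10 annotated loci with the largest difference in each direction among probes well above background on all 6 arrays (ticks, group means). HS lies between 4.15 and 7.56 for the loci higher in HT, while the loci higher in HS keep a signal in HT and differ less, by 1.54 to 3.13.

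The genes higher in HS were led by LOX2, the chloroplast lipoxygenase of jasmonate synthesis. One LOX2 probe read 10.19, 12.05 and 12.63 in HT and 14.54, 14.98 and 14.72 in HS, 3.13 lower in HT (SE 0.43, adjusted p = 9.9e-05), or 8.74-fold. The groups did not overlap, and the HT replicate 1 array was the lowest, without which the difference was -2.41. Another LOX2 probe, above background on 2 of 3 HT arrays, was 3.24 lower in HT, the third 1.04 lower (adjusted p = 0.0424), and the last, the brightest with a mean of 16.16 in HT and 15.09 in HS, was 1.08 higher in HT (adjusted p = 0.018). The 4 probes thus did not run one way. The 2 smaller calls were lost without single arrays: the -1.04 became -0.81 without HT replicate 1 (adjusted p = 0.168), -1.08 without HT replicate 3 (0.0826), -1.14 without HS replicate 1 (0.0641) and -0.77 without HS replicate 2 (0.17). The 1.08 became 0.96 without HT replicate 2 (0.0705), 0.92 without HT replicate 3 (0.0781), 0.88 without HS replicate 1 (0.085) and 0.99 without HS replicate 3 (0.0642).

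LTP6, a lipid transfer protein, read 11.05, 10.70 and 11.74 in HT and 13.93, 13.43 and 13.68 in HS at its most different probe, 2.52 lower in HT (adjusted p = 1.01e-05). No HT array reached an HS array. Its 6 probes were 1.06 to 2.52 lower in HT, and 4 of them were called. AT1G14120, an oxygenase of the 2-oxoglutarate family, was 2.90 lower in HT, with a second probe at 2.75 lower. A probe the annotation gives to FBA3, a plastid fructose-bisphosphate aldolase, was 2.44 lower, but it was designed on the same transcript as the LTP6 probe above and ran beside it on every array, so both names stand for 1 transcript whose gene is unsettled. Over all annotated probes 7 targets carry 2 different loci in this way. CSLG2, a cellulose synthase-like protein, was 2.44 lower, and 4CL5, a 4-coumarate:CoA ligase, was 2.32 lower. AT1G06070, a bZIP transcription factor, the unknown protein AT3G03170 and PUX3, a CDC48-interacting protein, were 1.54 to 2.06 lower. PUX3 had a second probe 1.36 lower and one more, not called, at 2.26 (adjusted p = 0.0537). Only 42 of the 1979 probes called higher in HS carry a name here (2.12%), against 706 of the 1826 higher in HT (38.7%), since no table of probes higher in HS was used here.

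Among probes well above background on all 6 arrays, the largest differences towards HS were at probes without annotation. Probe A_46_P319420 read 5.47, 6.23 and 5.69 in HT and 14.70, 14.87 and 14.71 in HS, 8.96 lower in HT (adjusted p = 1.51e-12) and 499.7-fold. Probe A_46_P220329 was 8.95 lower in HT, at 3.99, 5.97 and 4.50 against 14.03, 13.65 and 13.62. For both, the HS arrays lay close together and no HT array came near them. Towards HT the leading unannotated probes measured on all 6 arrays were A_46_P134909, 5.85 higher, and A_46_P326960, 5.38 higher.

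A further 315 probes were well above background on all 3 HT arrays and on no HS array, and 528 on all 3 HS arrays and no HT array. For such a probe only a lower bound of the fold can be had, taken against the higher of its own signal and the lowest signal marked well above background on each dim array. The bound was 2-fold or more for 219 of the HT and 504 of the HS probes, and 10-fold or more for 80 and 290. Its median was 3.02 in HT and 12.2 in HS, and the highest bounds were 330 and 1983. Of the probes past 2-fold, 126 of 219 and 376 of 504 kept the same pattern on all 12 arrays at 22 and 27 °C, above background on all 6 of the one line and on none of the other. Leaving out the HT replicate 2 array, which had the smallest share of probes well above background (65.7%), took the number in HT from 315 to 696.

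CPN10, the mitochondrial co-chaperonin, had the largest bound among annotated probes. It read 12.37, 12.40 and 12.47 in HT and 2.14, 4.54 and 2.13 in HS, where no array was well above background, so HT was at least 318-fold higher (adjusted p = 1.1e-09). Its second probe, at 7.48 in HT on average, was at least 10.8-fold higher. AT4G29520, an endoplasmic reticulum protein of unknown function, was at least 284-fold higher in HT, TRA2, a transaldolase of the pentose phosphate pathway, at least 221-fold, AT3G32930, unknown, at least 202-fold, SMP1, a splicing factor, at least 141-fold, and AT5G12190, an RNA-binding protein, at least 134-fold. As with the probes above, a second TRA2 probe stood at 10.52 in HT and 9.69 in HS and was only 0.83 higher in HT (adjusted p = 0.00269). The second probe of AT3G32930 was well above background on 3 HT arrays and 1 HS array, at a mean of 12.11 in HT and 3.69 in HS. That of AT5G12190 was so on 3 HT and 2 HS arrays, at 13.36 in HT and 5.80 (SD 1.89) in HS, so the HS means of both rest in part on signal not above background. All 56 annotated probes of the HT class come with names because of how the tables were made, and none of the 528 HS probes is named.

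Among flowering regulators, 3 of 9 probes of the module table were called higher in HS (33.3%, against 24.9% of that whole table) and none higher in HT. In the table of probes higher in HT (HT-higher table), 3 of 8 were called higher in HT (37.5%, against 82.1% of that whole table). FLC read 11.52, 11.53 and 12.14 in HT and 12.52, 12.50 and 12.92 in HS. It was 0.92 lower in HT (SE 0.17, adjusted p = 0.000955), or 1.89-fold, and the highest HT array stayed below the lowest HS array. The annotation gives the FLC probe only an Arabidopsis locus. Which of the broccoli FLC homologues in the paper it reads was not tested. The lines' FLC difference was -0.26 (adjusted p = 0.324) at 22 °C and -0.19 (adjusted p = 0.526) at 27 °C, and the change between 15 °C and the warmer temperatures was not called (-0.69, adjusted p = 0.241), except without HT replicate 3 (-0.90, adjusted p = 0.0218). AGL79, a MADS-box gene, read 4.49, 5.17 and 5.10 in HT and 6.26, 6.65 and 5.98 in HS, 1.38 lower in HT (adjusted p = 9.62e-05), again without overlap. GI was 0.38 lower in HT (adjusted p = 0.0397), a call lost without HT replicate 1 (-0.37, 0.1), HT replicate 3 (-0.26, 0.176), HS replicate 1 (-0.40, 0.0708) or HS replicate 2 (-0.28, 0.16). LFY was at 0.52 (adjusted p = 0.463), SUF4, an activator of FLC in Arabidopsis, at 0.11 (adjusted p = 0.62) and PKL, a chromatin remodeller, at 0.06 (adjusted p = 0.812).

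The MADS-box gene STK, which directs ovule identity in Arabidopsis, stood apart from this. It read 11.68, 11.77 and 11.57 in HT and 5.52, 6.27 and 5.82 in HS, 5.80 higher in HT (adjusted p = 6.82e-11), and its second probe was 5.66 higher. The HT arrays lay close together and far above every HS array. FY, an RNA 3′-end processing factor of the autonomous pathway, was 2.05 higher in HT. Of the shoot meristem genes, 2 of 15 probes of the module table were called, both higher in HS (13.3%, against 24.9% of that whole table). ERL2, a receptor kinase of the ERECTA family, was 0.67 lower in HT and PDF2 0.39 lower. ERECTA itself was at -0.16 at one probe (adjusted p = 0.557) and 0.66 at the other (adjusted p = 0.0633).

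**Figure D3:**
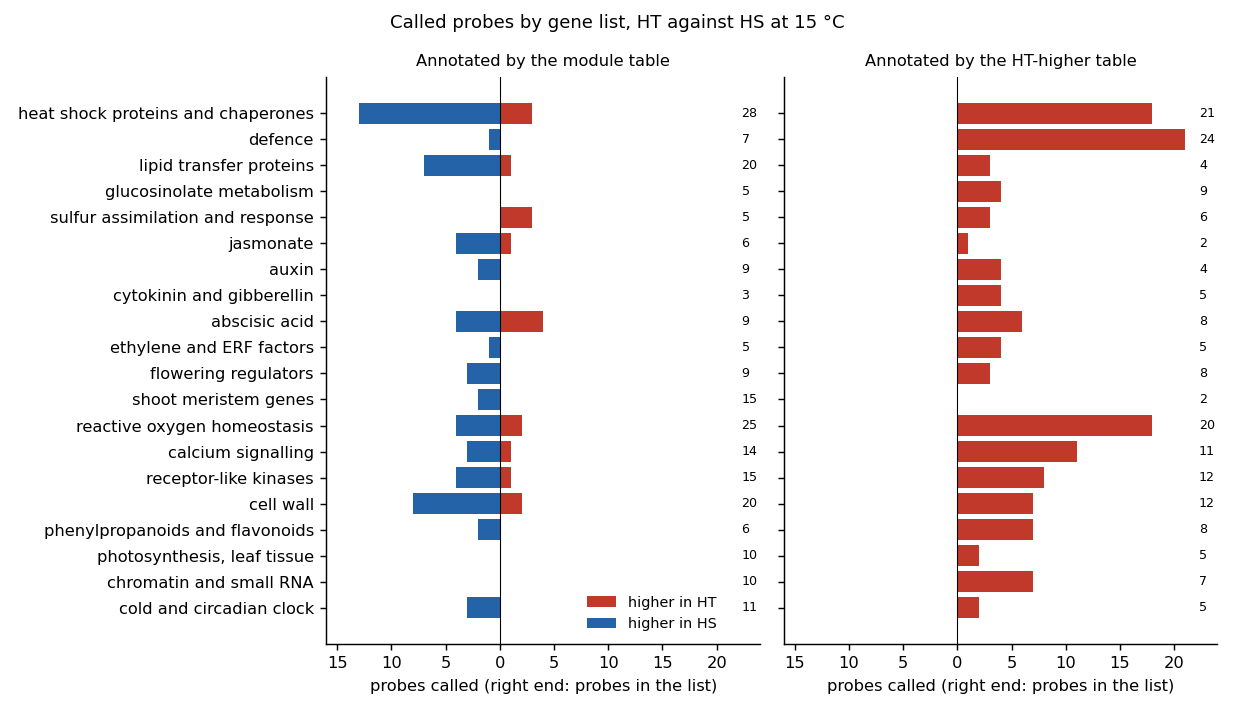
Number of probes called at 15 °C (adjusted p under 0.05, no minimum fold) in each of 20 gene lists, higher in HT to the right and higher in HS to the left, for probes annotated by the module table and by the HT-higher table, with the number of probes in the list at the right end. In the module table heat shock proteins and chaperones hold the most calls towards HS, 13 of 28, and every call in the HT-higher table is towards HT.

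Counts over the 20 gene lists were read against the table that named the probes. Of all 1187 probes of the module table, 102 were called higher in HT (8.59%) and 295 higher in HS (24.9%), with a median difference of -0.23, while of the 970 other annotated probes 796 were called higher in HT (82.1%) and 0 higher in HS. The median over all probes was 0.02. Counts of single lists are to be read beside these shares, and a count near them is no result about that list. By module, calls ran mostly one way. In the brown module 350 of 890 probes and in the pink module 80 of 341 were called higher in HS, and 0 of either higher in HT. Of 328 magenta probes 119 were called higher in HT and 5 higher in HS. Probes had entered the modules only after the filter on the line difference described above, so these shares exceed a free count. The modules were then built from correlation across these same arrays. A shared direction within a module is therefore in part how it was made, and not independent evidence. Over all lists 148 probes were called higher in HT and 58 higher in HS.

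Heat shock proteins and chaperones were called in both directions. Of 28 module-table probes 13 were called higher in HS (46.4%, against 24.9% of that whole table) and 3 higher in HT (10.7%, against 8.59%). Their median was -0.28. Of 21 HT-higher probes 18 were called higher in HT (85.7%, against 82.1% of that whole table). Members higher in HS included cytosolic ones that heat induces. The HSP70 of AT3G12580 read 4.01, 5.24 and 5.81 in HT and 6.82, 7.36 and 6.51 in HS, 1.87 lower in HT (adjusted p = 0.0151). Its groups did not overlap, but the call was lost without HT replicate 1 (-1.37, adjusted p = 0.0752) or HS replicate 2 (-1.64, adjusted p = 0.0624). A second probe, above background on 1 HT array, was 2.12 lower in HT (adjusted p = 0.0266), a call lost without HT replicate 1 (adjusted p = 0.086), HT replicate 2 (0.0976), HS replicate 1 (0.0676) or HS replicate 3 (0.11), and the third was at background in both. The small heat shock protein HSP17.6A was 1.41 and 1.44 lower in HT at its 2 probes, and HSP17.6B was 0.54 to 0.75 lower at 3 probes.

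Members higher in HT included mitochondrial and plastid chaperones, among them CPN10 above. HSP60, the mitochondrial chaperonin that works with CPN10, was 1.12 and 1.22 higher in HT, the first at a probe whose target carries another locus (AT2G30230) at its other probe, HSP89.1, a mitochondrial HSP90, was 1.54 higher at one probe and 0.52 at another, and CLPB3, the plastid disaggregase, was 0.95 higher. J2, a DnaJ co-chaperone, was 2.16 higher, and BOB2, a relative of the chaperone BOB1, 3.02 higher. The small heat shock proteins HSP15.7, HSP22.0 and HSP23.6 were well above background only in HT, by bounds of 4.55-fold, 1.40-fold and 1.27-fold.

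In the jasmonate list 4 of 6 module-table probes were called higher in HS (66.7%, against 24.9% of that whole table). Of these 3 were LOX2 and 1 was AOC4, an allene oxide cyclase (0.38 lower in HT), while OPR2, an oxophytodienoate reductase, was 0.87 higher in HT. In the defence list 21 of 24 probes of the HT-higher table were called higher in HT (87.5%, against 82.1% of that whole table). This is near the share of the table and no result about defence genes. Of 7 module-table probes 1 was called higher in HS (14.3%, against 24.9% of that whole table). PR4, a chitin-binding protein, read 10.12, 9.95 and 8.13 in HT and 2.02, 2.05 and 2.00 in HS, where it was at background, so HT was at least 40.9-fold higher. FLS2, the flagellin receptor, was 1.34 higher in HT, BSMT1, a methyltransferase of salicylate and benzoate, 1.70, and NIMIN-2, a partner of the salicylate receptor NPR1, 2.35 and 1.44 at its 2 probes. The 2 probes of the chitinase AT2G43590 were called in opposite directions, at 2.02 and -0.61. The second of these was lost without HT replicate 1 (-0.43, adjusted p = 0.0808).

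Lipid transfer proteins had 7 of 20 module-table probes called higher in HS (35%, against 24.9% of that whole table), among them 4 of LTP6. Higher in HT was 1 (5%, against 8.59%). LTP3 was 1.10 lower in HT at 1 of its 4 probes. Of 4 HT-higher probes 3 were called (75%, against 82.1% of that whole table), led by AT4G12510 at 1.69. The AT4G12510 call was lost without HT replicate 3 (1.30, adjusted p = 0.0787) and with pairs as a block (adjusted p = 0.0587). Cell wall genes had 8 of 20 module-table probes called higher in HS (40%, against 24.9% of that whole table) and 2 higher in HT (10%, against 8.59%). XTH31, a xyloglucan endotransglucosylase, was 1.31 lower in HT, and 3 probes of the pectin methylesterase inhibitor family gene AT5G62350 were 0.43 to 0.50 lower. Of the 12 HT-higher probes 7 were called higher in HT (58.3%, against 82.1% of that whole table). TCH4, a touch-induced xyloglucan enzyme, was 1.45 higher in HT. CESA1, a subunit of the primary wall cellulose synthase, read 13.23, 13.47 and 13.20 in HT and 5.11, 5.84 and 2.70 in HS, 8.75 higher in HT (adjusted p = 4.85e-08), with 2 of 3 HS arrays above background. Without HS replicate 3 the difference was 7.82, and without HS replicate 2 it was 9.40.

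Several phenylpropanoid and flavonoid genes were higher in HT. DFR, the dihydroflavonol reductase of anthocyanin synthesis, read 9.22, 9.87 and 10.78 in HT and 5.89, 6.16 and 6.59 in HS, 3.74 higher in HT (adjusted p = 3.74e-07), and 3.61 higher at a second probe. UF3GT, an anthocyanin glycosyltransferase, was 2.74 higher, LAC17, a lignin laccase, 1.65 and C4H, cinnamate 4-hydroxylase, 1.13. With both AT4G00040 probes these made 7 of 8 probes called in the HT-higher table (87.5%, against 82.1% of that whole table), which was chosen for that direction. Of 6 module-table probes 2 were called, both higher in HS (33.3%, against 24.9% of that whole table). They were 4CL5 and MYB3, an R2R3-MYB factor that was 1.42 lower in HT.

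Redox genes of the HT-higher table were called at 18 of 20 probes (90%, against 82.1% of that whole table), with a median of 2.42. Of 25 module-table probes 2 were called higher in HT (8%, against 8.59%) and 4 higher in HS (16%, against 24.9%). The plastid thioredoxin ATHX read 11.19, 10.74 and 10.91 in HT and 2.23, 2.37 and 2.24 in HS, at least 119-fold higher in HT. The thioredoxin TRX3 was 4.55 higher, and the glutathione transferases GSTU25, GSTU19, GSTU7 and GSTF2 were 3.82, 2.61, 2.43 and 2.41 higher. Towards HS, GPX2, a glutathione peroxidase, was 0.60 lower in HT and 3 probes of the plastid thioredoxin TRXF2 0.40 to 0.55 lower, while none of 4 CAT2 catalase probes was called (-0.44 to -1.27).

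Glucosinolate genes had 4 of 9 probes called in the HT-higher table (44.4%, against 82.1% of that whole table) and none of 5 in the module table. ESP, which steers glucosinolate breakdown towards nitriles, was called at all 3 probes, at 2.01, 1.08 and 1.01. The first was lost without HT replicate 2 (1.89, adjusted p = 0.0833), HT replicate 3 (1.77, 0.099), HS replicate 1 (1.79, 0.0977) or HS replicate 3 (1.99, 0.0682). The other call, CYP83A1, a cytochrome P450 of glucosinolate synthesis, was 2.12 higher in HT (adjusted p = 0.0383) and above background on 2 HS arrays, and was lost without any one of the 6 arrays at 15 °C (adjusted p = 0.0598 to 0.138). BCAT4, which starts methionine chain elongation, was not called at any of 4 probes (0.16 to 1.03). In sulfur metabolism APS1, ATP sulfurylase, was called higher in HT at 3 of 4 module-table probes (0.41 to 0.51), and LSU3, a low-sulfur response protein, was 1.33 and 1.27 higher.

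For hormones, ARR4, a type-A cytokinin response regulator, read 11.38, 11.10 and 10.43 in HT and 7.15, 8.02 and 6.78 in HS, 3.66 higher in HT (adjusted p = 2.15e-06) without overlap. KO, the ent-kaurene oxidase of gibberellin synthesis, was 2.51 higher in HT, and GASA14, a gibberellin-responsive protein, 2.88. In the abscisic acid list 4 of 9 module-table probes were called each way (44.4%, against 8.59% of that whole table towards HT and 24.9% towards HS). The receptor PYL8 was 2.76 and 1.45 higher in HT, while RPK1, a receptor kinase, was 0.61 lower. AIP2, an E3 ligase acting on ABI3, differed by 5.35, but 1 HS array decided the size: HS read 9.18, 9.14 and 2.25, and without HS replicate 3 the difference was 3.05 (adjusted p = 0.0021). Without HS replicate 1 or 2 it was 6.51 or 6.49. Auxin, ethylene, calcium and receptor kinase lists had 0 or 1 module-table probes called higher in HT and 1 to 4 higher in HS, and 4 of 4, 4 of 5, 11 of 11 and 8 of 12 probes of the HT-higher table.

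Cold and clock genes had 3 of 11 module-table probes called, all higher in HS (27.3%, against 24.9% of that whole table). They were GI, RVE2, a MYB-like clock factor (0.93 lower in HT), and RD29A, a cold and drought response gene. RD29A was also 0.93 lower in HT, a call lost without HT replicate 1 (-0.78, adjusted p = 0.0603) or HS replicate 1 (-0.77, adjusted p = 0.0613). CSP2, a cold shock domain protein, was 2.13 higher in HT with HS replicate 3 at 10.77, close to the lowest HT array at 11.38, and 2.78 higher without that array. Photosynthesis genes had none of 10 module-table probes called, and chromatin genes none of 10. In the HT-higher table, where 82.1% of all probes were called higher in HT, all 7 chromatin probes were called. They were led by a histone H3 family gene, AT5G65360. Its 2 probes were 11.06 and 10.13 higher in HT with 1 of 3 HS arrays above background. Histone genes form a large family of close copies, which a probe may not tell apart. The first probe was 12.98 higher without HS replicate 2, 9.95 without HS replicate 1 and 10.26 without HS replicate 3. HDA6, a histone deacetylase, was 1.49 higher in HT.

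At 158 annotated loci 2 or more probes were called, and at 8 of them the called probes had opposite signs. LOX2 and AT2G43590 are described above, and the others were AT4G19006, AT3G29320, NFU4, AT2G29670, AT3G20500 and VHA-A2. At the remaining loci all called probes ran one way.

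The same 2 lines at the warmer temperatures, compared on separate arrays, show how far these differences are particular to 15 °C. Between the lines 3739 probes were called at 22 °C (8.58%) and 3675 at 27 °C (8.43%). Calls of the same sign at 15 and 22 °C numbered 2859, which is 75.1% of the 15 °C and 76.5% of the 22 °C calls, and at 15 and 27 °C 2743, which is 72.1% and 74.6%. At all 3 temperatures 2529 probes were called with 1 sign, 1051 higher in HT and 1478 in HS, and 95.8% of the 15 °C calls had the same sign at both other temperatures. The difference between the lines at 15 °C correlated across the 27260 measured probes with that at 22 °C (r = 0.894) and at 27 °C (r = 0.871). This is a correlation across probes, which are not independent replicates and share the probe's own sequence.

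Line differences that were themselves unlike at 15 °C were tested as the difference at 15 °C less the mean of those at 22 and 27 °C. With adjusted p under 0.05 as the only condition, 169 probes were called (0.388%), 107 with a higher HT minus HS at 15 °C and 62 with a lower one. Of these, 101 were also called between the lines at 15 °C. Of the 716 probes called at 15 °C and at neither other temperature, 39 passed this test, so for the remaining ones a difference from the warmer temperatures was not shown.

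These counts moved with single arrays and with the fit. The HT replicate 3 array lay nearer to the HS mean than to the other HT arrays at 41 of the 107 probes and 8 of the 62, against 213 of the 3805 probes called at 15 °C (5.60%). Without it 365 higher and 97 lower were called. Without HT replicate 1 the counts were 61 and 34, without HT replicate 2 the lower count was 38, without HS replicates 1, 2 and 3 at 15 °C they were 47 and 34, 43 and 40, and 70 and 61. Without HT replicate 1 at 22 °C the lower count was 41, without HT replicate 2 at 22 °C the counts were 69 and 39, and without HS replicate 1 at 27 °C the higher count was 71. Same-numbered arrays of the 2 lines deviated together, and with each such pair as a block only 9 higher and 5 lower were called, 10 of them among the 169.

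**Figure D4:**
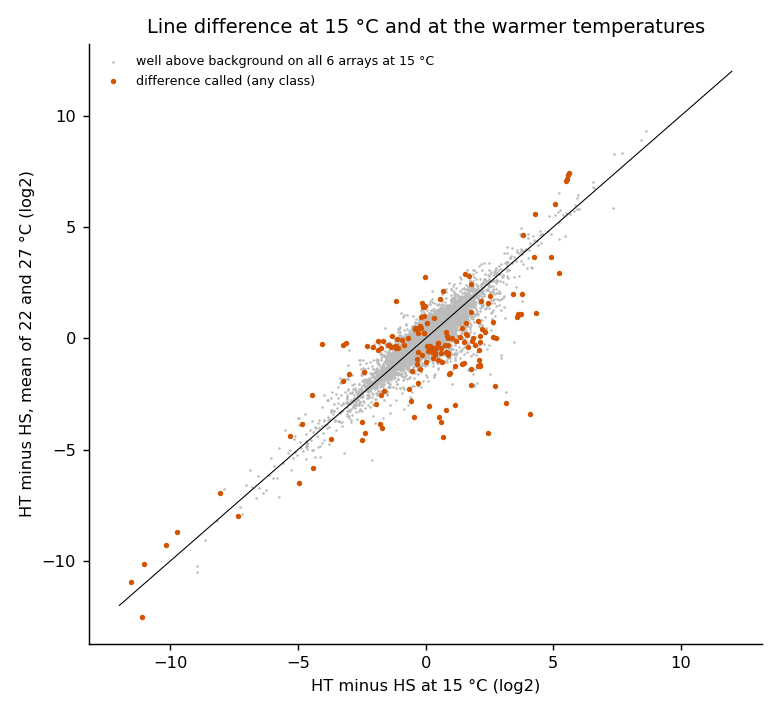
HT minus HS at 15 °C (horizontal axis, log2) against the mean of HT minus HS at 22 and 27 °C (vertical axis, log2) for the 27260 probes measured on all 6 arrays at 15 °C, with the line of equality. The 169 probes called for a difference between the temperatures (orange, all classes) include probes below the line on the right, where HT minus HS is larger at 15 °C than at the warmer temperatures.

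Of the 5 loci named for the largest increase of HT minus HS at 15 °C, UGT76B1, WRKY70 and DMR6 are known for roles in salicylate metabolism or signalling, and in these and in AT1G75050 HT replicate 3 stood lowest of the HT arrays. UGT76B1, a glycosyltransferase of salicylate and its relatives, read 13.07, 12.48 and 9.06 in HT and 6.88, 8.81 and 6.68 in HS at 15 °C, 4.08 higher in HT (adjusted p = 0.00931). At 22 and 27 °C it was 2.85 and 3.97 lower in HT, a change of 7.49 (adjusted p = 0.023). All HT arrays at 15 °C lay above all HS arrays there, and HT replicate 3 was the nearest. The change was not called without HT replicate 1 (adjusted p = 0.0581), HT replicate 2 (0.057), HS replicate 1 (0.0729) or HS replicate 3 (0.0533) of 15 °C, and was 8.73 without HT replicate 3. The thaumatin AT1G75050 read 16.63, 15.92 and 12.99 in HT and 12.93, 12.41 and 12.83 in HS, 2.46 higher in HT (adjusted p = 0.0402) against 3.31 and 5.19 lower at 22 and 27 °C, a change of 6.71 (adjusted p = 0.0116). HT replicate 3 was at the level of the HS arrays. The difference at 15 °C was not called without HT replicates 1 or 2 (1.73, adjusted p = 0.175, and 2.09, 0.14) or HS replicates 1, 2 or 3 (2.56, 0.0781, 2.30, 0.108, and 2.51, 0.0818), nor with pairs as a block (0.0624). It was 3.56 without HT replicate 3.

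WRKY70, a transcription factor of salicylate signalling, read 10.56, 10.29 and 8.23 in HT and 8.50, 9.15 and 7.95 in HS. At this probe the groups overlapped and the main fit did not call the lines at 15 °C (1.16, adjusted p = 0.112). The probe was called with pairs (0.0307), replicate number (0.0462) or slide (0.00836 fixed, 0.0468 random) as a block. Its change from the warmer temperatures was 4.14 (adjusted p = 0.0102). Without HT replicate 3 its difference at 15 °C was 1.89 (adjusted p = 0.000545). A second, brighter WRKY70 probe was 1.15 higher in HT at 15 °C (adjusted p = 0.0224), with a change of 2.38 (adjusted p = 0.0242). DMR6, a salicylate hydroxylase, was 2.07 to 2.12 higher in HT at its 3 probes, with changes of 3.33 to 3.38 (adjusted p = 0.0355 to 0.0404). Its brightest probe read 13.95, 12.98 and 11.27 in HT and 10.76, 10.81 and 10.28 in HS, without overlap. These calls rested on all arrays together: of the 18 arrays, leaving out any one but HT replicate 3 at 15 °C ended the call at 2 probes, and any one but that and HT replicate 1 at 27 °C ended it at the third (highest adjusted p = 0.109), with changes of 2.71 to 4.11 throughout. The brightest DMR6 probe differed by 1.51 at 15 °C without HT replicate 1 and by 2.85 without HT replicate 3. At 22 and 27 °C the first WRKY70 probe read 6.72 to 7.69 on the 6 HT arrays and 9.62 to 10.54 on the 6 HS arrays, without overlap.

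In DFR the HT replicate 3 array was the highest of the HT arrays. Its difference at 15 °C of 3.74 compared with 1.17 at 22 °C and 0.98 at 27 °C, a change of 2.67 (adjusted p = 0.00979), and its second probe changed by 2.57. ABP1, an auxin-binding protein, was 2.04 higher in HT at 15 °C, with 8.85, 8.80 and 8.95 in HT and 6.78, 6.69 and 7.02 in HS, and 1.27 and 0.24 higher at 22 and 27 °C, a change of 1.28 (adjusted p = 0.0256). It was not called without HT replicate 1 (adjusted p = 0.063), HT replicate 2 (0.0558), HS replicate 1 (0.0816) or HS replicate 2 (0.0757) of 15 °C or HS replicate 1 of 27 °C (0.0509).

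**Figure D5:**
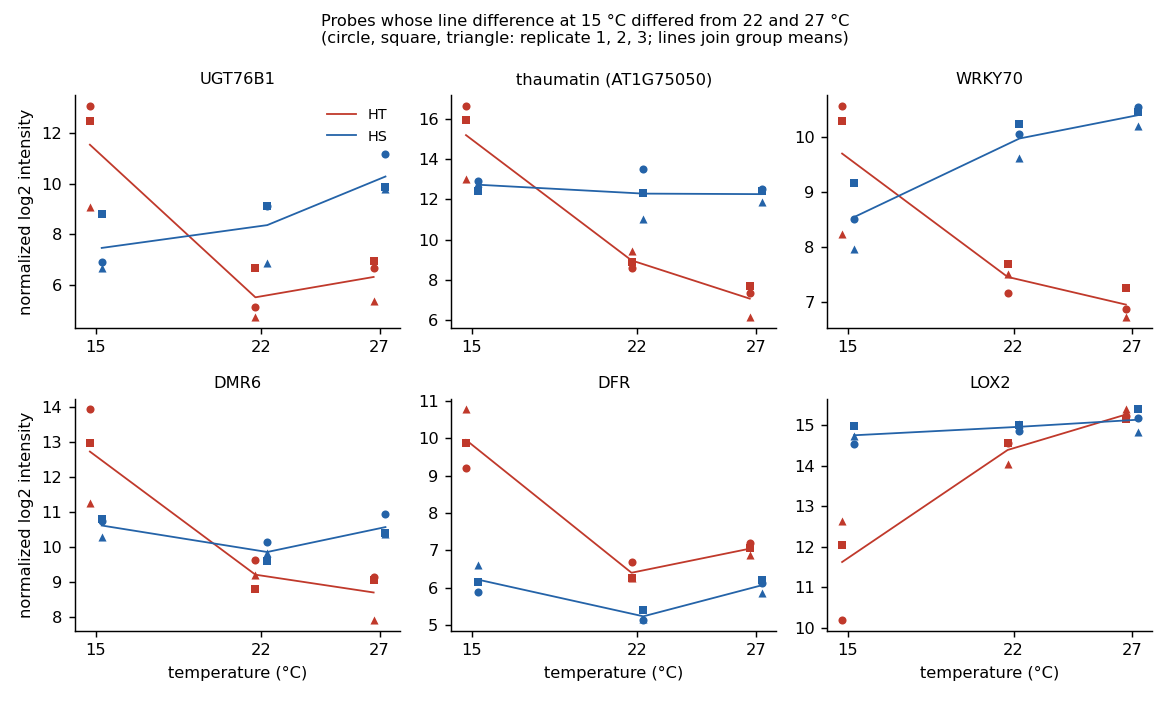
Normalized log2 intensity on each array against temperature in °C for 6 genes, HT in red and HS in blue, with lines joining the group means of 3 arrays and symbols marking the replicate number. The HT mean is above the HS mean only at 15 °C for UGT76B1, AT1G75050, WRKY70 and DMR6, DFR is higher in HT throughout, and the LOX2 probe shown is low in HT only at 15 °C.

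In the other direction, 2 of the 4 LOX2 probes were low in HT at 15 °C only. Both of these were over 3 lower in HT at 15 °C and within 0.70 of HS at 22 and 27 °C, with changes of -2.91 and -2.93 (adjusted p = 0.0328 for each). The calls were lost without 13 and 15 of the 18 arrays left out singly (highest adjusted p = 0.0936), and both were called without HT replicate 1 or 3 at 15 °C or HS replicate 3 at 22 °C, the first also without HT replicate 3 at 22 °C or HS replicate 2 at 27 °C. The other two LOX2 probes did not share the pattern, at -1.04, -0.93 and -0.85 and at 1.08, 0.90 and 0.85 at 15, 22 and 27 °C. At the LOX2 probe with the change of -2.91, the HT arrays read 14.04 to 14.57 at 22 °C and 15.15 to 15.40 at 27 °C. All of these lay above its 15 °C values in HT. PRF3, a profilin that binds actin, read 10.72, 10.66 and 10.92 in HT and 12.32, 11.90 and 12.39 in HS at 15 °C, 1.43 lower in HT (adjusted p = 1.46e-06) and without overlap. It was 0.45 and 0.14 lower at 22 and 27 °C, a change of -1.13 (adjusted p = 0.0102). SAUR32, of the small auxin-responsive family, was 1.30 lower in HT at 15 °C, at 5.71, 5.75 and 5.32 against 6.71, 6.94 and 7.03, and at -0.11 and 0.29 at 22 and 27 °C, a change of -1.39 (adjusted p = 0.0271) that was lost without HT replicate 1 or any HS replicate at 15 °C, HT replicate 1 or 2 at 22 or 27 °C, or HS replicate 1 at 27 °C (adjusted p = 0.0514 to 0.0757). CYP96A12, a cytochrome P450, and AT5G47920, of unknown function, were higher in HT at the warmer temperatures, by 1.13 to 2.08 and 1.67 to 1.86, and at 15 °C stood at -0.14 (adjusted p = 0.67) and 0.55 (adjusted p = 0.00417), changes of -1.74 and -1.22. The changes of AT1G75050, PRF3, CYP96A12, AT5G47920 and the first WRKY70 and DFR probes were called whichever of the 18 arrays was left out. With pairs as a block the changes of the first WRKY70 and the first DFR probe remained called (adjusted p = 0.0411 for each). Those of the other genes named here had adjusted p from 0.0525 to 0.118.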

How the data were processed

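The authors deposited Agilent Feature Extraction output, whose processed intensity of each spot is corrected for background by the scanner software, per the file headers, and not normalized between arrays. The authors also deposited log2 values of their own, which match the log2 intensity after a 75th percentile shift of every array and a shift per probe (largest departure 0.0022), with array medians from -0.098 to 0.0877. These served as an alternative. Control spots and outlier spots (4 to 24 on each 15 °C array; none was saturated) were left out, spots of a probe were averaged, and log2 intensities were quantile-normalized over 18 arrays, since the methods name RMA. At 15 °C 49 probes lacked a value on some array, and fits drop that array for them. limma 3.58.1 in R 4.3.3 (with statmod 1.5.0) fitted 1 mean per line and temperature (12 residual degrees of freedom), with two-sided tests and Benjamini-Hochberg adjustment over 43603 probes. For 3 against 3 arrays an exact permutation test could not go below p = 0.1. Signal over background and the number of arrays limit precision. Background rates use the same call rules.

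The members and lists were chosen with earlier results of these data known. Named genes are the 10 annotated loci with the largest fold each way among called probes well above background on all 6 arrays, the 6 with the largest bound, the 5 with the largest change from the warmer temperatures each way, the largest called probe of each list and direction, 12 genes the study names, and the 2 such unannotated probes with the largest fold each way. Other list members are examples chosen after their values were seen. Gene names come from the study's tables, which were read only in part. None of 40632 targets matched a RefSeq accession in the reference. No columns of other samples were met.

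Same-numbered arrays of the 2 lines deviated together (r = 0.368, 0.47 and 0.315, against -0.343 to -0.0713 for other combinations) and shared slides, so that the numbers pair the arrays. The main fit has no block. The pairs, replicate number, slide and scan day were alternatives, as were shifting arrays to the 75th percentile, normexp (offset 50), an RMA-type correction in limma, the methods' t-test, other thresholds, probes well above background, 1 probe per target, the 6 arrays alone, and each array left out. The code was tested on simulated data.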

Additional observations from a re-analysis of the deposited data

Results flagged for a closer look

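A line difference that was itself unlike at 15 °C and at the warmer temperatures was called at 169 probes in limma, without a block for pairs. With pairs as a block 14 probes were called, 10 of them among the 169. Among the named genes the change is HT minus HS at 15 °C less its mean at 22 and 27 °C. It was 7.49 for UGT76B1, 6.71 for AT1G75050, and 4.14 and 2.38 for 2 probes of WRKY70. The 3 probes of DMR6 changed by 3.38, 3.34 and 3.33, DFR by 2.67 and ABP1 by 1.28. The change was -2.91 and -2.93 for 2 probes of LOX2, -1.74 for CYP96A12, -1.39 for SAUR32, -1.22 for AT5G47920 and -1.13 for PRF3. At 14 of the 33 annotated probes called, the HT replicate 3 array lay nearer to the HS than to the HT arrays at 15 °C. Over the 27260 probes measured on all 6 arrays, that array was 2-fold or more away from the other 2 of its line at 500 probes, 411 of them lower, against 165 to 466 for the other 5 arrays. Groups of 3 arrays were too small to test for outlying arrays.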

How the results depend on the processing

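No called probe among the named genes changed sign under any alternative run. Of those not called, 3 BCAT4 probes went below 0 without HS replicate 1 (-0.09, -0.01 and -0.08), 1 of them also without HT replicate 3 (-0.01), PKL did without HT replicate 2 (-0.02), and within the slide of replicate 3 BCAT4 (-0.05 and -0.04 at 2 probes), PKL (-0.0039), CYP96A12 (0.07) and ERECTA (0.30) changed sign. More probes were called higher in HS than in HT, and the reverse without a minimum fold. For the main counts (1826 higher in HT, 1979 higher in HS), normexp gave 1028 higher in HT and the methods' t-test, adjusted, 1212; no minimum fold gave 4992 and 4232, and a 4-fold minimum 682 and 1078. Leaving out an array gave 1675 to 1803 and 1867 to 1971. Probes above background in one line only became 755 in HT when 2 of 3 arrays sufficed, and leaving out an array gave 333 to 696 in HT and 541 to 625 in HS. Over all gene lists (148 and 58), the adjusted t-test called 92 and 19, and leaving out an array gave 125 to 141 and 39 to 57. Of the named probes 72 were called, 42 by the adjusted t-test and 63 to 67 without an array. The 6 arrays alone ended 18 of these calls.

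The count of line differences unlike at 15 °C (107 higher, 62 lower) moved most: 69 and 41 with the 75th percentile shift and with the authors' values, 56 and 25 with the RMA-type correction, 218 and 113 with slide as a fixed block, 215 and 134 with slide as a random block (correlation 0.202), 96 lower with scan day, 98 lower with the replicate block, 9 and 5 with pairs as a block, 9 and 6 against 22 °C alone, and 36 lower with a 2-fold minimum. Leaving out an array gave 43 to 365 and 34 to 97. At an unadjusted p under 0.05 the test passed 3227 probes. The cause of these moves was not tested. Pairs as a block ended the calls of AT1G75050 and AT4G12510 (adjusted p = 0.0587). The first WRKY70 probe gained a call with the pair, replicate and both slide blocks. ERECTA gained a call with slide as a random block (0.66, adjusted p = 0.0445). The blocks changed no other named call at 15 °C, and 3701 of the 3805 probes called at 15 °C were also called with pairs.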
